A study of Mus musculus with 6 samples.

Results

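Predicted genes are mouse gene models that carry a provisional symbol, the letters Gm and a number, because no established name has been given to them. The models described here were chosen by their level: every symbol made of Gm and digits only was taken if its counts, summed over the 6 libraries, came to at least 200. There were 234 such symbols among 24902 Gm symbols, of which 6504 had at least 1 count, and among 53599 symbols in all. The same cut left 205 symbols ending in Rik, the other large family of provisional mouse names, and 10538 symbols of other kinds.

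RNA was sequenced from mouse hepatocytes 4 days after injection of adeno-associated virus serotype 8. In the Sox4 group the vector carried HA-tagged Sox4 and Cre recombinase joined by a P2A peptide, and in the empty vector (EV) group it carried Cre without Sox4. Both groups thus received virus and Cre. The study's methods describe the empty vector with a guide RNA backbone (U6-sgRNA), so the vectors may differ in more than Sox4. Both vectors used the TBG promoter, active in hepatocytes, and the study's methods give the animals as young male mice of a C57BL/6J background that hold a Cre-dependent Cas9-EGFP allele. Each group had 3 libraries of liver cells released with liberase and enriched on Percoll, and the comparison asks which transcripts differ once Sox4, a transcription factor of the SOX family, is delivered to hepatocytes. The delivered gene had 2, 0 and 3 counts in the EV libraries and 21697, 15097 and 11816 in the Sox4 libraries, as their labels state.

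Gm symbols cover transcripts of several kinds. A processed pseudogene is a copy of a messenger RNA that was written back into the genome, an unprocessed pseudogene is a duplicated gene that has lost its function, and a long non-coding RNA is a transcript with no known protein. Some Gm models are protein-coding genes of expanded families, such as KRAB zinc finger genes, and others lie on the opposite strand of a named gene. Sequencing reads of a recent copy resemble those of the gene it came from, and reads from opposite strands can be told apart only if strand is used in counting.

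Of the 234 members, 109 were annotated in GENCODE M21 as long non-coding RNA or as TEC, a class of models that await experimental evidence, 73 as pseudogenes and 37 as protein-coding genes, and 15 were not in that release. For 67 members, at least 90% of the transcript aligned at an identity of at least 95% with the transcript of a named gene. They are called copies here, 56 of nuclear genes and 11 of mitochondrial genes, and this limit was set after the values had been seen. Short stretches of the copies that the results turn on are shown beside the same stretch of the named gene, with capitals at the bases where the sequences differ. All are written 5′ to 3′ from the GENCODE M21 transcripts and lie within the coding part of the named gene.
Gm11223: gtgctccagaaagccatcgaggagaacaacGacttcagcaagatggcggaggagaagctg
Stmn1: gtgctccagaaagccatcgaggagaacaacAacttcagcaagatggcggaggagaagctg
Gm5424: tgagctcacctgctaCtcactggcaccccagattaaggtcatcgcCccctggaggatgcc
Ass1: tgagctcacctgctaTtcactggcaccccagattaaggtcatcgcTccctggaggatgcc
Gm11843: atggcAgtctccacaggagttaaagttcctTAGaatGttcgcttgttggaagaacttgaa
Ube2v2: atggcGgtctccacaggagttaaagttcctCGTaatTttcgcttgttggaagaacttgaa
Gm8893: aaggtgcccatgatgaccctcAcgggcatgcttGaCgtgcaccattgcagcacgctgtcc
Serpina1a: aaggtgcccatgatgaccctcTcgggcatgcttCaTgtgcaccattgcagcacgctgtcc

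These stretches were the ungapped 60 bases with the most differences. Gm11223, on chromosome 4, differed from Stmn1 at 1 of 450 aligned bases, and Gm5424, on chromosome 10, differed from Ass1 at 6 of 1240. Gm11843, on chromosome 4, differed from Ube2v2 at 5 of the 60 bases shown, and Gm8893, on chromosome 12, from Serpina1a at 3.

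All 234 members passed the filter on low counts and were tested. Counts were compared with the quasi-likelihood F test of edgeR, and a gene was called at an adjusted p under 0.05 over all 12691 tested genes. Of the members, 114 were called (48.7%), 39 higher and 75 lower in Sox4 hepatocytes. Over all tested genes 55.1% were called, 29.0% higher and 26.0% lower. In 135 members (57.7%) the 3 EV and the 3 Sox4 libraries did not overlap in CPM, a count scaled to a common library size, against 63.0% of all tested genes. The members' share called was therefore near or below that of all genes, and the lower direction held more of their calls. The median log2 fold change was −0.13 over the members and 0.04 over all tested genes. For the Rik symbols 115 of 205 were called, 51 higher and 64 lower, with a median of −0.03.

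The scale bears on these directions. Scaling used the TMM method of edgeR, which trims the most extreme genes and sets the effective size of the Sox4 libraries 1.48 times that of the EV libraries. Library totals as the only scale raised the median of all tested genes to 0.51 and that of the members to 0.34. On that scale 82 of the 234 members were higher and 52 lower, against 6468 and 1624 of the 12691 tested genes. A member with a small fall on the TMM scale can therefore have a rise on the other. The cut also favours members that are high in 1 group: 50 members had fewer than 100 summed counts in EV and 33 had fewer in Sox4. Among the other 151, 56 were called, 14 higher and 42 lower, with a median of −0.21.

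Kinds of transcript differed in how many members were called, as the plot of change by kind shows. The share over all tested genes was 55.1% called, 29.0% higher and 26.0% lower. None of the 11 copies of mitochondrial genes was called, against 22 of the 56 copies of nuclear genes (14 higher, 8 lower), 9 of 29 other protein-coding members (4 higher, 5 lower), 6 of 16 other pseudogenes (3 each way) and 10 of 15 members not in GENCODE M21 (4 higher, 6 lower). Of the non-coding members that are no copies, 29 of 45 on the opposite strand of a named gene were called (5 higher, 24 lower), 7 of 11 inside a named gene on its own strand (1 higher, 6 lower) and 31 of 51 outside named genes (8 higher, 23 lower). Their medians were −0.96, −0.92 and −0.64, and by library size alone −0.49, −0.45 and −0.17. The non-coding members thus had medians below 0 on both scales, whereas the median of the nuclear copies was 0.32, or 0.79 by library size alone. The shares called in these non-coding kinds, 64.4%, 63.6% and 60.8%, were near that of all tested genes. No test compared the kinds with each other, and the part of the cut on summed counts in each kind was not tested.

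**Figure D1:**
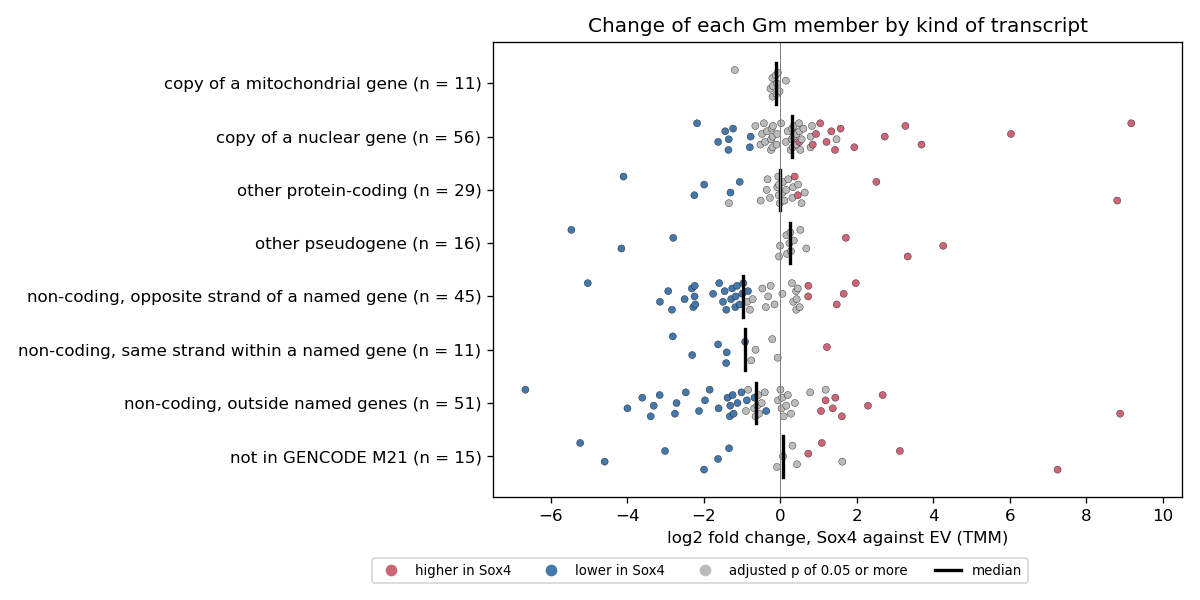
Log2 fold change of each of the 234 members, Sox4 against EV, by kind of transcript on the vertical axis, with the median as a black bar. The 3 non-coding kinds have medians of −0.96, −0.92 and −0.64 and mostly blue points, which are members lower in Sox4, whereas the copies of mitochondrial genes hold no called member.

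The members took a small part of the RNA. They held 0.236% ± 0.029 (SD, n = 3) of the counts in EV and 0.268% ± 0.004 (SD, n = 3) in Sox4 libraries. The difference was 0.031 percentage points. An exact two-sided permutation test of 3 against 3 cannot go below p = 0.1, so it could make no call. Without Gm42047, the most abundant member, the shares were 0.212% and 0.232%.

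Named members were chosen by a rule: the 10 largest increases and decreases among called members whose mean count was 100 or more and whose groups were apart. Of these, 3 were nearly absent in EV and abundant in Sox4 hepatocytes. Gm49708, a non-coding gene on chromosome 16, had 0, 1 and 1 counts in the EV libraries and 456, 500 and 656 in the Sox4 libraries. Gm8113, annotated as protein-coding on chromosome 14, had 0, 0 and 1 counts against 356, 241 and 269. Gm50321, which was not in GENCODE M21, had 3, 3 and 0 against 404, 423 and 597. The groups were apart in each of the 3. From the summed counts on TMM-scaled sizes, Gm49708 was 543 times higher in Sox4 (95% exact interval 150 to 4487), Gm8113 was 583 times higher (104 to 23066) and Gm50321 was 160 times higher (73.3 to 436). These intervals cover counting error only. The single EV count of Gm8113 lay in EV replicate 3, and its fitted log2 change was 8.81 with that library and 10.96 without it. Their adjusted p in edgeR was 3.1e-07, 1.0e-06 and 1.5e-06.

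Gm49708 and Gm8113 are related in sequence. Their transcripts aligned at 96.9% identity over 1006 bases, and both held a stretch that matched a non-coding transcript of Itga6, the gene of integrin alpha 6, at 99.3% and 95.9%. Gm47547, an antisense RNA on chromosome 14, held the same stretch. It had 0 counts in every EV library and 84, 36 and 78 in the Sox4 libraries, a summed count of 198 that leaves it just outside the cut. The level of Gm47547 was at least 14.8-fold higher in Sox4, against a floor of 3 counts per library. A part of the stretch is shown in 3 genes, with capitals where any of them differs.
Gm49708: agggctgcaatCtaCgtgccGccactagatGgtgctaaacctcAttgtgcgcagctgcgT
Gm47547: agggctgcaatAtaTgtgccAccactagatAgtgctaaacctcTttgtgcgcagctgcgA
Itga6: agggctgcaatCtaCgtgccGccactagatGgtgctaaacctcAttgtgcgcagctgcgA

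Gm49708 and Itga6 differed at 1 of these 60 bases, and Gm49708 and Gm47547 at 6. Itga6 itself had 32, 37 and 36 counts in EV and 352, 374 and 555 in Sox4 libraries, a log2 fold change of 3.04 ± 0.21 (SE) with an adjusted p of 5.5e-06 in edgeR. Zfp975, a zinc finger gene that also holds the stretch, had 28, 49 and 79 counts against 77, 164 and 112, with overlap on the CPM scale and a log2 difference of 0.62. The symbols Gm44247, Gm47101 and Gm48116 match it too and had 0 counts in every library. How reads common to these genes were assigned was not tested.

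The other largest increases were smaller. Gm11843 had 16, 35 and 43 counts in EV and 405, 582 and 815 in Sox4, a rise of 3.69 ± 0.49 on the log2 scale (SE, adjusted p = 5.3e-05 in edgeR). Gm3776, a near copy of its neighbour Gsta1 (99.5% identity), a glutathione S-transferase gene of the alpha class, had 47, 30 and 18 against 702, 482 and 191 and rose by 3.27 ± 0.68 (SE, adjusted p = 0.0029 in edgeR). Gsta1 had 49, 64 and 41 against 717, 566 and 256 and rose by 2.74. Sox4 replicate 3 was the lowest of its group for Gm3776, yet above every EV library. Gm49331, Gm5113, Gm8893, Gm7072 and Gm3219 followed, with log2 fold changes of 1.72, 1.37, 1.34, 1.09 and 0.85, adjusted p between 3.8e-05 and 0.0093, and no overlap between groups.

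The largest decrease was that of Gm31583, a long intergenic non-coding RNA on chromosome 16. It had 386, 231 and 365 counts in EV and 6, 1 and 7 in Sox4 libraries, so every Sox4 library lay far below the lowest EV library. Its level was 104 times higher in EV (95% exact interval 61.8 to 191, counting error only), and the log2 fold change was −6.66 ± 0.52 (SE, adjusted p = 2.0e-06 in edgeR). The nearest named protein-coding gene in the GRCm38 annotation was Bcl6, a transcriptional repressor, with a log2 difference of −1.09 and an adjusted p of 0.36.

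Gm3734, which was not in GENCODE M21, had 179, 215 and 179 counts in EV and 11, 14 and 10 in Sox4 (log2 fold change −4.59 ± 0.16 SE). Gm27216, an intergenic RNA on chromosome 9, had 184, 197 and 180 against 11, 15 and 26 (−3.99 ± 0.33 SE). The replicates of both were close together within each group. Gm8883 on chromosome 1 and Gm30262 on chromosome 10, both non-coding, fell by 3.38 and 3.15 on the log2 scale. Gm8883 had 231, 246 and 395 counts in EV and 24, 49 and 50 in Sox4, and Gm30262 had 226, 185 and 273 against 59, 28 and 27. Gm19696 and Gm48633 fell by 1.99 and 1.84. Every adjusted p of these 6 was 9.1e-05 or lower in edgeR.

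Several members with large decreases had mean counts under 100 and are named here after their values were seen. Gm4956, a pseudogene near Gsta3, had 206, 137 and 110 counts in EV against 14, 1 and 0, and Gm53019 had 76, 140 and 201 against 11, 3 and 2. Gm36041, an intergenic RNA near the vasopressin receptor gene Avpr1a, had 123, 134 and 139 against 23, 13 and 12. In each of these the highest Sox4 library lay below the lowest EV library.

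**Figure D2:**
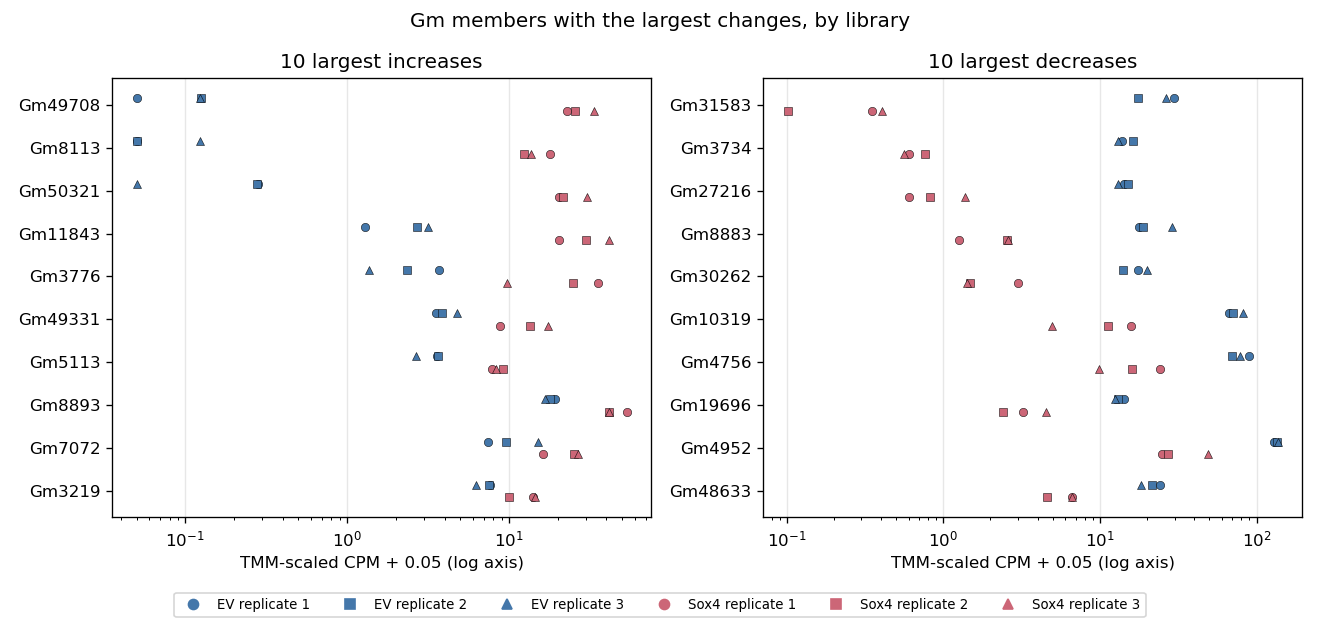
TMM-scaled CPM plus 0.05 in each library, on a log axis, for the 10 largest increases (left) and the 10 largest decreases (right) among called members whose mean count was 100 or more and whose groups were apart. Gm49708, Gm8113 and Gm50321 lie near 0 in EV, and Gm31583 falls from 386, 231 and 365 counts to 6, 1 and 7.

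Among the largest decreases were also 3 abundant members, 2 of them relatives of liver genes. Gm4952, a gene of the glycine N-acyltransferase family beside Glyat, had 1686, 1770 and 1874 counts in EV and 494, 531 and 971 in Sox4, for a log2 value of −1.99 (SE 0.31) and an edgeR adjusted p of 0.00017. Glyat itself had a log2 fold change of −0.57, and −0.10 by library size alone. Gm10319, a pseudogene with sequence in common with the murinoglobulin gene Mug2, had 866, 935 and 1129 counts against 312, 218 and 96 (−2.79 ± 0.50 SE, adjusted p = 0.00085 in edgeR). Mug2 had a log2 difference of −0.26 with an adjusted p of 0.43. Gm4756, a protein-coding model on chromosome 12, had 1168, 913 and 1074 against 485, 313 and 194 (−2.24 ± 0.39 SE, adjusted p = 0.00050 in edgeR). Sox4 replicate 3 was lowest for Gm10319 and Gm4756 and highest for Gm4952.

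Of 10 symbols on a list headed liver paralogs, 6 were in the count table and 3 were members, Gm4952, Gm10319 and Gm3776. Whether the listed symbols below the cut, such as Gm15441, are paralogs of liver genes was not checked. Gm15441, below the cut, had 1, 3 and 1 counts in EV and 13, 49 and 79 in Sox4, a ratio of 19.0 (95% exact interval 7.95 to 59.4), with an adjusted p of 0.0022 in edgeR, and Gm10681 and Gm4450 were at 0 throughout. Of 3 listed symbols related to ribosomal RNA only Gm15564 was in the table, with 84, 79 and 61 counts against 55, 62 and 54 (−0.96 ± 0.18 SE, adjusted p = 0.0076 in edgeR). By library size alone the change of Gm15564 was −0.49 with an adjusted p of 0.105. Of 8 listed interferon-inducible GTPase or Ifit-like symbols, 6 were in the table and only Gm4951 reached the cut. Gm4951, related to the interferon-inducible GTPase gene Iigp1, had 1725, 1812 and 2041 counts against 2486, 2973 and 2532, with a log2 difference of −0.05 ± 0.10 and an adjusted p of 0.75, beside 0.80 for Iigp1. Gm12250 and Gm4841 had log2 differences of −0.96 and −0.56 with adjusted p of 0.21 and 0.40, and Gm5431, Gm12185 and Gm7609 had at most 5 counts in a library. The listed symbols absent from the table were not analysed here.

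The nuclear copies moved much as the genes they match. Over the 54 copies with a tested match, the copy and the match were both called in the same direction in 18 pairs (10 higher, 8 lower), in opposite directions in 2, and neither was called in 16. In 2 pairs only the copy was called and in 16 only the match, whose counts were mostly far higher. The log2 changes were within 0.5 of each other in 42 pairs, with a median distance of 0.25. Pearson's r over the 54 pairs was 0.92 and Spearman's rho 0.81, and r was 0.79 without Gm9844 and Gm11223. These are descriptions over genes, several copies match the same gene (45 genes in all), and reads can be common to both partners.

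Of the copies that were higher together with their match, 3 are given, chosen after their values were seen. Gm9844, matched at 99.1% to Tmsb10, the gene of the actin-binding peptide thymosin beta 10, had 0 counts in every EV library and 66, 110 and 82 in Sox4, at least 19.3-fold higher against a floor of 3 counts per library. Tmsb10 had 7, 1 and 7 counts against 2414, 1252 and 1470. Gm11223 had 0, 1 and 1 against 85, 71 and 67, a ratio of 75.1 (95% exact interval 20.5 to 624). Its match Stmn1, which encodes the microtubule regulator stathmin, had 39, 37 and 24 against 4020, 2961 and 3266. The fitted log2 fold changes of Gm11223 and Stmn1 were 6.03, which depends on the prior count, and 6.10. Gm12715, a copy of the gamma actin gene Actg1, had 18, 21 and 10 counts against 78, 87 and 54 and rose by 1.58 on the log2 scale (adjusted p = 0.0049 in edgeR), beside 1.73 for Actg1.

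Of the copies that were lower together with their match, 4 are given, chosen after their values were seen. Gm5424, which matches Ass1 of the urea cycle, had 797, 622 and 432 counts in EV and 384, 310 and 389 in Sox4, a log2 fold change of −1.35 ± 0.30 (SE) against −1.57 for Ass1. Gm9826 and Gm4737 both match Ahcy, whose product hydrolyses S-adenosylhomocysteine, at 99.2% and 99.7%. Gm9826 had 154, 128 and 84 counts against 52, 37 and 32, and Gm4737 had 135, 90 and 64 against 49, 53 and 38. They fell by 2.17 and 1.62 on the log2 scale, on either side of the fall by 1.92 of Ahcy. Gm5096, a copy of the betaine-homocysteine methyltransferase gene Bhmt, had 1027, 584 and 427 against 390, 335 and 476 and a log2 fold change of −1.34 (adjusted p = 0.012 in edgeR). The groups of Gm5096 did not overlap on the CPM scale, and without Sox4 replicate 1 its adjusted p was 0.092.

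Copies of translation genes held no call. None of the 16 copies of ribosomal protein or elongation factor genes, such as Gm10736 and Gm10076 (Rpl41) and Gm13456 (Eef1a1), was called in edgeR or in DESeq2, and none had an unadjusted p under 0.05. In edgeR 55.1% of all tested genes were called. The log2 differences of the 16 copies ran from −0.65 to 0.43, and those of the 11 genes they match ran from −0.90 to 0.69. Among the matched genes, Rplp1 and Eef1a1 were called lower and Rpl13a higher, whereas Rpl41 was not called. On library totals, 4 of the 16 copies were called higher, where 6468 of the 12691 tested genes were. This grouping was made after the values had been seen.

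**Figure D3:**
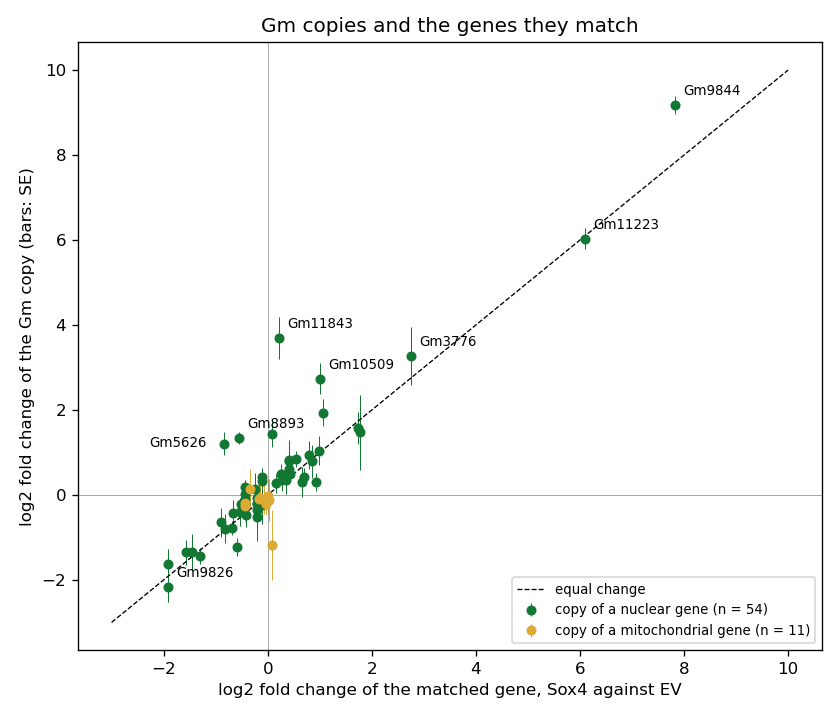
Log2 fold change of each Gm copy (vertical axis, bars are SE) against that of the named gene it matches (horizontal axis), for 54 nuclear and 11 mitochondrial copies, with a dashed line of equal change. Gm9844 and Gm11223 lie far along the line, and Gm11843, Gm10509, Gm8893 and Gm5626 lie above it. The place of Gm9844, at 0 in EV, depends on the prior count of the edgeR fit, whereas the SE bars come from log2 CPM with a prior count of 2.

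In a few pairs the copy and the match parted. Gm11843 rose by 3.69 on the log2 scale, whereas Ube2v2, a ubiquitin-conjugating enzyme variant, had 164, 167 and 191 counts in EV and 300, 306 and 297 in Sox4, a log2 difference of 0.22 with an adjusted p of 0.18 in edgeR (0.69 by library size alone). Gm8893 had 250, 234 and 230 counts against 1060, 812 and 812 (log2 fold change 1.34), and Serpina1a, an alpha-1 antitrypsin gene, had 29306, 31664 and 36835 against 32181, 35428 and 31479 (−0.55, adjusted p = 0.0098 in edgeR, and −0.08 by library size alone). Counts of Gm8893 were 0.62% to 0.85% of those of Serpina1a in the EV libraries and 2.29% to 3.29% in the Sox4 libraries. Gm5626 had 35, 34 and 50 counts against 184, 117 and 108 (1.21), and its match Stoml2, a mitochondrial stomatin-like gene, had 734, 763 and 782 against 727, 558 and 616 (−0.83). These pairs were picked for their difference, so no test of it is given.

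Members of more distant relation also departed from the gene they resemble. Among the relatives of Gapdh, a glycolytic enzyme gene with a log2 fold change of −1.21, Gm8941 had 114, 52 and 114 counts against 11, 7 and 5 and fell by 4.15. Gm5345 had 95, 87 and 102 against 168, 162 and 147, a log2 difference of 0.18 with an adjusted p of 0.40. Gm3839 had 547, 549 and 657 against 503, 434 and 90, so that its value turned on Sox4 replicate 3 (−1.34, adjusted p = 0.098 in edgeR).

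Of the members, 16 aligned over at least 50% of their length with a zinc finger gene (named Zfp, or 2610044O15Rik8), a limit set after the values had been seen. In edgeR 6 of the 16 were higher in Sox4 hepatocytes and 0 lower, DESeq2 gave the same counts, library size alone gave 9 and 0, and 1 more was lower at an unadjusted p under 0.05. Over all tested genes 29.0% were called higher, but those genes were not chosen by the cut on summed counts. Gm49760 and Gm10509 had 7 and 27 summed counts in EV against 208 and 269 in Sox4, so Sox4 counts brought them past the cut. Of the 50 members under 100 summed counts in EV, 25 were called higher and 0 lower. The 6 of 16 can therefore not be judged against 29.0%, and the part of the cut in these calls was not tested. Gm49760 had 7, 0 and 0 counts in EV and 52, 71 and 85 in Sox4, a ratio of 20.02 (95% exact interval 9.54 to 50.4, counting error only). All EV counts of Gm49760 lay in EV replicate 1, and its fitted log2 change was 4.26 with that library and 8.92 without it, where EV is at 0 and the value depends on the prior count. Gm10509 had 13, 6 and 8 against 65, 109 and 95 (2.73), and Gm4924 had 21, 11 and 19 against 109, 156 and 169 (2.51). Gm10226, Gm49331 and Gm47467 rose by 1.94, 1.72 and 1.43. The other 10, among them Gm14305, Gm14325, Gm14326, Gm14403 and Gm14410 on chromosome 2, had log2 differences between −0.51 and 0.47.

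The copies of mitochondrial genes lie on nuclear chromosomes, and 5 of the 11 matched the mitochondrial gene without a difference. None of the 11 was called in edgeR or DESeq2, where edgeR called 55.1% of all tested genes. None had an unadjusted p under 0.05, and the median log2 difference was −0.12 (0.35 by library size alone). Counts of Gm28661 were 123% to 146% of those of mt-Co2 in EV and 114% to 123% in Sox4 libraries, and counts of Gm28439 were 0.48% to 0.68% and 0.44% to 0.84% of those of mt-Nd4. The level of mt-Co2 was itself low, 45.9 CPM in EV against 30234.5 for mt-Co1 and 4579 for mt-Nd4. How reads common to a copy and its match were assigned was not tested, so these percentages may not give the level of either. The spread lay between replicates rather than groups. Gm10925, a copy of mt-Atp6, had 717, 656 and 576 counts in EV and 607, 1496 and 757 in Sox4, and all 11 copies were highest in their group in Sox4 replicate 2. Mitochondrial genes took 4.45%, 7.14% and 7.59% of the counts in the Sox4 libraries and 5.43% to 6.003% in the EV libraries. Without Sox4 replicate 2, Gm13340, Gm28661 and Gm10925 had log2 fold changes of −0.62, −0.46 and −0.51 with adjusted p of 0.045, 0.029 and 0.036.

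Gm28438 is almost the same as mt-Nd3, of the respiratory chain, as 60 bases of each show, with the only difference over 345 bases in capitals.
Gm28438: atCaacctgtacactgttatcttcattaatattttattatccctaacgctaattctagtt
mt-Nd3: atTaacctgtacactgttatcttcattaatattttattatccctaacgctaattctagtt

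Gm28438 had 78, 339 and 186 counts in EV and 59, 231 and 102 in Sox4 libraries. Replicate 2 was the highest in both groups, and the log2 difference was −1.18 ± 0.83 (SE) with an adjusted p of 0.19 in edgeR. With the replicate number as a block the adjusted p was 0.00025 in edgeR, though the labels do not state a pairing. mt-Nd3 had 634, 537 and 499 against 1055, 750 and 841, and was not highest in replicate 2. At 42.0 CPM in EV and 44.6 in Sox4, mt-Nd3 was low too, and how reads of the pair were assigned was not tested.

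Of the members on the opposite strand of a named gene, 42 had a tested partner. In the whole kind 24 of 45 members were lower and 5 higher, where 26.0% and 29.0% of all tested genes were. Beside the 18 partners that were lower, 15 members were lower, 1 was higher and 2 were not called. Beside the 7 partners that were higher, 2 members were lower, 1 was higher and 4 were not called, and beside the 17 partners that were not called, 7 were lower, 2 were higher and 8 were not called. For 38 of the 45, exons of the member have bases in common with exons of another counted gene model. That model can lie on either strand and can itself be provisional. Since the strand setting of the counting was not stated, reads of such pairs may not be separable. Pearson's r of the log2 changes over the 42 pairs was 0.36 and Spearman's rho 0.41, as descriptions over genes.

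Gm20319, opposite Il1rap, the interleukin-1 receptor accessory protein gene, had 476, 454 and 528 counts in EV and 175, 205 and 261 in Sox4 (−1.75 ± 0.18 SE, adjusted p = 1.9e-05 in edgeR), and 49.1% of its exonic bases overlap exons of Il1rap. Il1rap had 2152, 2441 and 2532 against 799, 869 and 910 (−2.03). Gm15883, opposite the cytochrome P450 gene Cyp2f2, had 73, 95 and 131 against 40, 7 and 42 (−2.31), with Cyp2f2 at −2.81. Gm11789, opposite the glucagon receptor gene Gcgr, had 392, 371 and 363 against 317, 258 and 359 (−0.84), with Gcgr at −0.36. With library totals as the scale these were −0.37, with an adjusted p of 0.052, and 0.11. Gm16157, opposite Fam169b, had 171, 136 and 155 against 32, 20 and 38 and fell by 2.93, more than the fall by 1.17 of Fam169b.

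Other pairs did not move together. Gm19950, opposite the acyl-CoA synthetase gene Acsm1 with no exonic base in common, had 139, 140 and 175 counts in EV and 403, 292 and 428 in Sox4 (0.74 ± 0.18 SE, adjusted p = 0.0054 in edgeR), whereas Acsm1 had 7351, 7221 and 9026 against 3752, 3142 and 2240 (−1.94). Gm45792, also opposite Acsm1, fell by 1.59. Gm15962, opposite Keg1, had 11, 15 and 20 counts against 82, 94 and 40 (1.66, adjusted p = 0.0062 in edgeR) beside −0.35 for Keg1. Gm10030, opposite Rtp3, had 15, 14 and 12 against 89, 76 and 76 (1.97, adjusted p = 0.00034 in edgeR) beside −0.15 for Rtp3. Neither Keg1 nor Rtp3 was called (adjusted p of 0.40 and 0.49 in edgeR). Keg1 and Rtp3 were at 0.12 and 0.32 by library size alone. Gm15638 fell by 1.49 where Phldb2 rose by 0.94, and Gm10658 fell by 0.99 where Ptpn9 rose by 0.64. Gm2788, opposite the cell cycle gene E2f8, had 107, 188 and 222 against 6, 3 and 14 (−5.03), with E2f8 at −0.29 and an adjusted p of 0.67. By library size alone the changes of Gm19950, Gm15638 and Gm10658 were 1.21, −1.02 and −0.52.

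**Figure D4:**
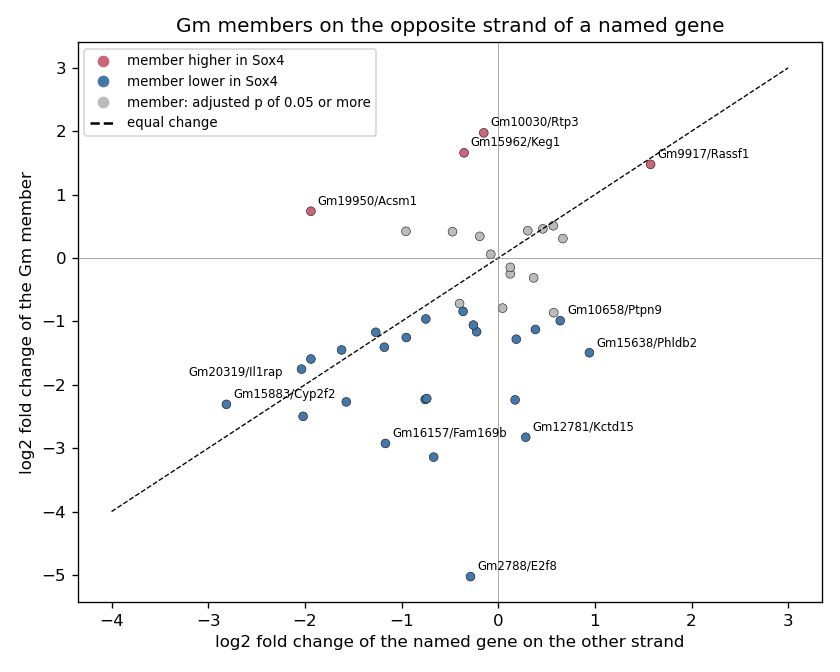
Log2 fold change of 42 Gm members (vertical axis) against that of the named gene on the other strand (horizontal axis), with a dashed line of equal change. Most blue points, members lower in Sox4, lie left of 0, while Gm19950, Gm15962 and Gm10030 rose beside genes with values of −1.94, −0.35 and −0.15 on the TMM scale. The genes at −0.35 and −0.15, Keg1 and Rtp3, were not called.

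Some intergenic members lie close to a named gene in the GRCm38 annotation. Gm36172, 135 bases from the urea cycle gene Arg1, had 73, 57 and 66 counts in EV and 37, 28 and 47 in Sox4 (−1.38, adjusted p = 0.0024 in edgeR), beside −1.49 for Arg1. Gm20186, 372 bases from Lsm8, had 10, 15 and 13 against 100, 127 and 136 (2.68, adjusted p = 4.9e-05 in edgeR), beside 1.34 for Lsm8. Gm5113, 125 bases from the zinc finger gene Zfp146, had 46, 47 and 36 against 156, 180 and 162 (1.37), beside 1.07. Over the 43 non-coding members outside named genes with a tested nearest gene, r was 0.33 and rho 0.29, and over the 11 that lie inside a named gene on its own strand r was 0.86 and rho 0.86.

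Promoter sequence from RefSeq (GRCm38.p6, 250 bases before to 50 after a start) was held for 70 of the 234 members. The promoters of Gm31583, the member that fell furthest, and of Gm5113, which rose, are given 5′ to 3′ on the strand of the gene, with motif matches in capitals. The search covered ACAAAG and, as a second core of the SOX motif, the string ACAATG. It also covered CAAAGT, part of the motif of the hepatocyte factor HNF4A. Both strands were searched, and the first and the last of these can overlap.
Gm31583 (chr16:24090016-24090315, minus strand): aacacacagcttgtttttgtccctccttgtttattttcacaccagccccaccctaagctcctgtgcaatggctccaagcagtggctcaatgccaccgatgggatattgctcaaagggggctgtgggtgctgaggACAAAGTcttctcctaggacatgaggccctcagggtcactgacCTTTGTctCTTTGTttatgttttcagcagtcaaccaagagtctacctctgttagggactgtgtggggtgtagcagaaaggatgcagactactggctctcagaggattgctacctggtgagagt
Gm5113 (chr7:30169625-30169924, plus strand): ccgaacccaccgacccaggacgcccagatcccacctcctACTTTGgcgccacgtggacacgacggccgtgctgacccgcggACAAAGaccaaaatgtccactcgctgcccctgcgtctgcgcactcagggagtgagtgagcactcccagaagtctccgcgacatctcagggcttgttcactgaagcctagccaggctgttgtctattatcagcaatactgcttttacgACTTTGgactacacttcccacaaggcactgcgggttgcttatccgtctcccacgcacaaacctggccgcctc

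ACAAAG was in 18.7% of the 32851 RefSeq promoters outside chromosome 18 and in 23 of the 97 promoters of the 70 members. ACAATG was in 12.6% and 12 of them, and CAAAGT in 14.4% and 21. A gene with several starts counts more than once. Among the 11 promoters of 10 members higher in Sox4, 5 held ACAAAG, and among the 52 of 32 members lower in Sox4, 10 did. CAAAGT was in 3 and 15 of them. These are counts of letters in a window, not of sites in use.

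The most abundant members by CPM held both even and uneven genes. Gm42047, a long intergenic RNA on chromosome 8, had 5452, 622 and 5348 counts in EV and 7727, 1807 and 8519 in Sox4 libraries. Replicate 2 was the lowest in both groups, 8.89 times below the highest EV library, and the log2 difference was 0.09 ± 1.26 (SE, adjusted p = 0.95 in edgeR). Gm43305 had 314, 228 and 96 counts against 918, 73 and 662, and Gm49980 had 38, 21 and 12 against 154, 7 and 168. Sox4 replicate 2 was far below its group in both, and neither was called over the 6 libraries. Without Sox4 replicate 2, Gm49980 had a log2 fold change of 2.18 with an adjusted p of 0.0034. Gm44250, a TEC model 366 bases from the paraoxonase gene Pon3, had 1268, 1410 and 1565 against 1531, 1587 and 1764, which gave −0.37 on the log2 scale (SE 0.09) and an adjusted p of 0.019 in edgeR. The change of Gm44250 was 0.11 by library size alone, and its adjusted p was 0.062, 0.064 and 0.063 without EV replicate 2, EV replicate 3 and Sox4 replicate 2.

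Per kilobase of exon, the levels of the 6 members with the highest mean CPM were as follows in order in EV: 98.6 CPM for Gm13340 (mt-Co1 copy), 90.4 for Gm28661, 59.2 for Gm4952, 52.8 for Gm4951, 50.5 for Gm42047 and 25.1 for Gm44250. In Sox4 they were 82.7, 78.5, 14.9, 51.0, 53.8 and 19.5, so that Gm4952 had the lowest mean. The Sox4 ranges of Gm4952 and Gm44250 overlapped, and in Sox4 replicate 3 Gm4952 was the higher of the pair. The replicate ranges of Gm13340 and Gm28661 overlapped in both groups. In EV the range of Gm42047 covered those of its neighbours in the order, whereas the ranges of Gm4952 and Gm4951 were apart. Levels of Gm13340 and Gm28661, copies of mitochondrial genes, depend on how reads common to copy and match were assigned, which was not tested.

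**Figure D5:**
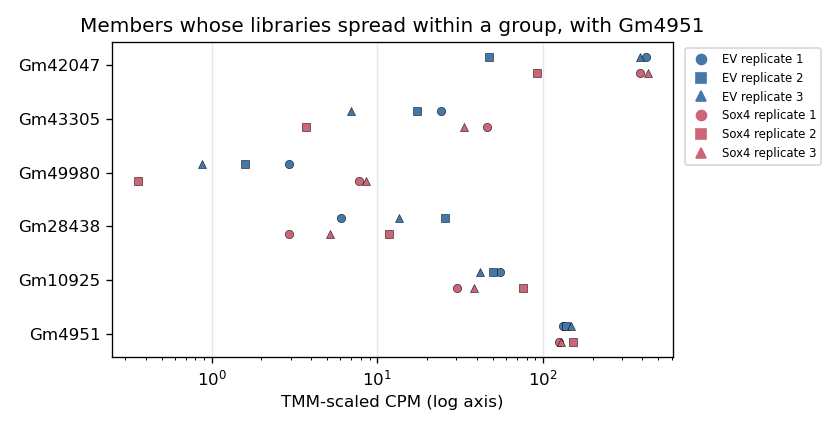
TMM-scaled CPM in each library, on a log axis, for 5 members whose libraries spread within a group and for Gm4951, which is even. Replicate 2 (squares) is lowest for Gm42047 in both groups and for Gm43305 and Gm49980 in Sox4, and highest for Gm28438 in both groups.

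Nearest to no change among members of mean count 100 or more were Gm46430, Gm16286, Gm10925 and Gm5524. Gm16286, a protein-coding model on chromosome 18, had 714, 694 and 715 counts in EV and 1051, 1142 and 943 in Sox4, which is 53.2 ± 1.61 CPM against 52.9 ± 5.28 CPM (SD, n = 3). Gm46430 had 116, 88 and 127 against 153, 175 and 165. With library totals as the scale, Gm16286, Gm46430, Gm5524 and also Gm4951 were called higher, by 0.46, 0.48, 0.50 and 0.42 on the log2 scale (adjusted p of 0.0049, 0.0497, 0.047 and 0.012 in edgeR). At the edge of the cut, Gm44103 (20, 21 and 30 against 39, 53 and 38) and Gm40438 (49, 31 and 46 against 32, 23 and 20) came to 201 and were kept, while Gm49188 (30, 27 and 24 against 29, 29 and 57) came to 196 and Gm47547 to 198 and were left out.

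Library totals ran from 15090629 to 16964860 counts, and chi-square per degree of freedom between libraries of a group ran from 17.6 to 62.7, so each was used as a separate replicate. The labels do not say that each library came from its own animal, while the study's figure legends give 3 animals for this sequencing. The p-values measure the spread between these libraries. Hepatocyte markers together held 107901 to 130289 CPM in each EV library and 74943 to 84152 in each Sox4 library, and 6 of 7 were lower (3 of 7 by library totals). Kupffer cell markers held 7.40 to 18.7 and 18.3 to 48.5 CPM (2 of 5 tested higher), stellate markers 8.63 to 43.9 and 74.1 to 134 (1 of 3 higher, Reln), cholangiocyte markers 10.02 to 21.9 and 48.5 to 59.0 (2 of 3 higher, with Krt19 and Krt7 at 0 in EV) and endothelial markers 14.0 to 20.96 and 11.7 to 26.5 (2 of 6 higher, 1 lower). The erythroid sum of 93.0 to 126 in EV and 4.97 to 15.5 in Sox4 was nearly all Alas2, with globin genes at 22 counts or fewer, and lymphoid or neutrophil markers stayed at 4.29 CPM or less, with Ms4a1 at 0. RNAs retained in the nucleus held 1045 to 1150 and 1160 to 1179 CPM (2 of 5 tested higher, 1 lower). The part of these markers in the members' changes was not tested, and in such bulk samples fewer cells of a type and less RNA per cell cannot be told apart.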

How the data were processed

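RNA labelled as total RNA was sequenced in 6 libraries, 3 a group. According to the submitters' processing notes, reads were handled with STAR 2.7.10b, featureCounts 2.0.1 and the GRCm39 build, and the deposited file holds whole-number counts per gene symbol that the authors had not normalized. The annotation release, strand setting and treatment of reads with several matches were not given in the sources used here. Members and lists were chosen with earlier results of these data known.

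Counts of the 6 libraries were filtered with filterByExpr (minimum count 10, minimum total 15) and tested with edgeR 4.0.16 (robust quasi-likelihood F test, TMM scaling, Benjamini-Hochberg adjustment at 0.05 over all tested genes) in R 4.3.3. Each SE belongs to the contrast of the 2 group means, taken on log2 CPM after adding a prior count of 2. The fitted log2 fold changes came from the edgeR fit, which kept its own default prior count. Alternatives were DESeq2 1.42.0, other scalings, filters and minimums, a replicate block and leaving out each library. The code was tested on simulated data.

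Transcript type, position and neighbours came from GENCODE M21 on GRCm38, so only chromosomes and distances are given. It held 219 of the 234 members. Copies were found by aligning GENCODE M21 transcripts with BLAST 2.17.0. Members were named by the rule given with the largest changes, plus the 6 of highest mean CPM, the 4 of mean count 100 or more nearest to no change, the 2 symbols on either side of the cut and 3 lists (ribosomal RNA related, interferon-inducible, liver paralogs). Other members were named after their values were seen. Ratios carry exact 95% binomial intervals for counting error only. Markers of 8 cell or RNA classes were summed. Some relatives of named genes are not reported here.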

Additional observations from a re-analysis of the deposited data

How the results depend on the processing

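With median-of-ratios size factors 114 members were called (39 higher, 75 lower), with DESeq2 111 (37 and 74), without a filter 120 (44 and 76), and at a mean count of at least 50 78 of the 155 members left (26 and 52). Every member called both here and in edgeR with TMM kept its direction. By library size alone 82 were higher and 52 lower, and 91 of the 114 were still called. Over the 12691 tested genes 6468 were higher and 1624 lower on that scale. A minimum of 100 summed counts gave 177 called members (72 higher), and one of 500 gave 45 (19 higher, 26 lower), as fewer or more members enter. Leaving out 1 library gave 100 to 113 called members, 32 to 41 higher and 68 to 75 lower, and a difference in the share of counts of 0.0163 to 0.0452 percentage points. With the replicate number as a block, 120 members (42 higher, 78 lower) and 7362 genes in all were called, against 6990 without it. Deviations of same-numbered libraries had correlations of 0.27, −0.09 and 0.13. The labels tie these libraries by number only, and these correlations cannot exclude a batch that they share. Under the block Gm28438 was called (−1.18, adjusted p = 0.00025 in edgeR) and Gm5096 was not (−1.26, adjusted p = 0.062).

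Changes near 0 turned their sign. Scaled by library size alone, Gm13340 was at 0.21, Gm4951 at 0.42, Gm44250 at 0.11, Gm28661 at 0.26, Gm16286 at 0.46, Gm10925 at 0.45, Gm49188 at 0.40 and Gm13341 at 0.28. Without a filter Gm16286 and Gm10925 were at 0.034 and 0.026, and at a mean count of at least 50 at 0.020 and 0.014. Leaving out 1 library gave −0.43 to 0.52 for Gm42047, −0.14 to 0.0020 for Gm4951, −0.14 to 0.075 for Gm46430, −0.080 to 0.065 for Gm16286, −0.51 to 0.23 for Gm10925, −0.14 to 0.17 for Gm5524 and −0.46 to 0.10 for Gm49188. On that scale Gm40438, Gm15564 and Gm5096 were no longer called (adjusted p of 0.054, 0.105 and 0.057 in edgeR), and the cause was not tested. Of the single-gene values under an alternative, 661 kept direction and call, 28 turned, 9 lost the call and 7 gained it. Counts per library limit the members near the minimum of 200, and which changes could be detected there was not tested.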
